A study of Mus musculus with 12 samples.

Results

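RNA of T_Y88A culture cells was set against RNA of wild-type culture cells at Day 4 of a mesodermal differentiation of mouse embryonic stem cells, with 1 library a side. Both libraries came from cells sorted by flow cytometry for T, the protein also called Brachyury. T_Y88A carries an amino acid substitution at residue 88 of T, where alanine replaces tyrosine. The genes described had a mean FPKM of 1 or more (fragments per kilobase of gene model, scaled to the number of mapped fragments) over the 2 Day 4 libraries. They number 11636 of the 23421 gene symbols measured, and the 2 libraries are 2 of the 12 samples of the series. Small RNA genes made up 84 of the 11636 and were counted apart, which leaves 11552. The series also holds 3 RNA libraries of T-positive embryo cells, which are T_Y88A at Theiler stage TS12, T_Y88A at TS13, and a wild type of TS12 and TS13 together. All of these samples have a mixed 129S2/C57Bl6J background. The Day 4 genotypes are given by the sample titles alone, and how many stem cell clones stand behind each library, or how T was detected in the sort, the labels do not say. The series description calls heterozygous T_het embryos wild type, and they do not say whether this holds for the Day 4 library titled wild type.

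The stem cells were freed of feeder cells, aggregated overnight in hanging drops and plated on fibronectin in serum-free medium. Both cultures received BMP4 at 20 ng/mL for 18 hours, and then WNT3A and FGF8 at 40 ng/mL each up to Day 4. T belongs to the T-box family of transcription factors and marks the primitive streak, the site where epiblast cells of the gastrulating embryo become mesoderm and endoderm. WNT, NODAL and BMP signals start the streak, FGF8 lets cells leave it, and T is then needed for the posterior mesoderm and for the notochord. The node at the front end of the streak gives rise to the notochord, secretes the BMP antagonists Noggin and Chordin, and carries motile cilia.

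Differences are given as T_Y88A minus wild type on the log2(FPKM + 1) scale, so that 1 on this scale is a 2-fold difference of the values after 1 was added. A gene with low values therefore shows less than its ratio of FPKM. With 1 library a side there is no replicate error and no test, so each value describes these 2 libraries, and a difference of cells cannot be told apart from a difference between single cultures, sorts or library preparations. Of the 11552 genes, 74 were 2-fold or more higher in T_Y88A cells (0.641%) and 150 were 2-fold or more lower (1.3%), together 224 (1.94%). The median difference was −0.03, and the central 90% of genes lay between −0.62 and 0.56. The smallest difference counted as higher was 1.00162 and the largest not counted was 0.999468, and on the lower side these were −1.00594 and −0.999213. Among the genes with a mean of 20 FPKM or more, 37 of 3675 were higher and 30 were lower. Among those with a mean of 1 to 2 FPKM, 9 of 1287 were higher and 29 were lower. From the steps between the lowest values, the depth of the T_Y88A library was estimated at 0.471 of that of the wild-type library, and absolute depth is unknown. The log2 values of the Day 4 libraries correlated across genes with r = 0.974, which describes 2 libraries and has no replicate to be set against. As a description of 2 libraries of 1 genotype, the T_Y88A embryo libraries of TS13 and TS12 were 2-fold apart at 1.03% of 11058 genes.

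**Figure D1:**
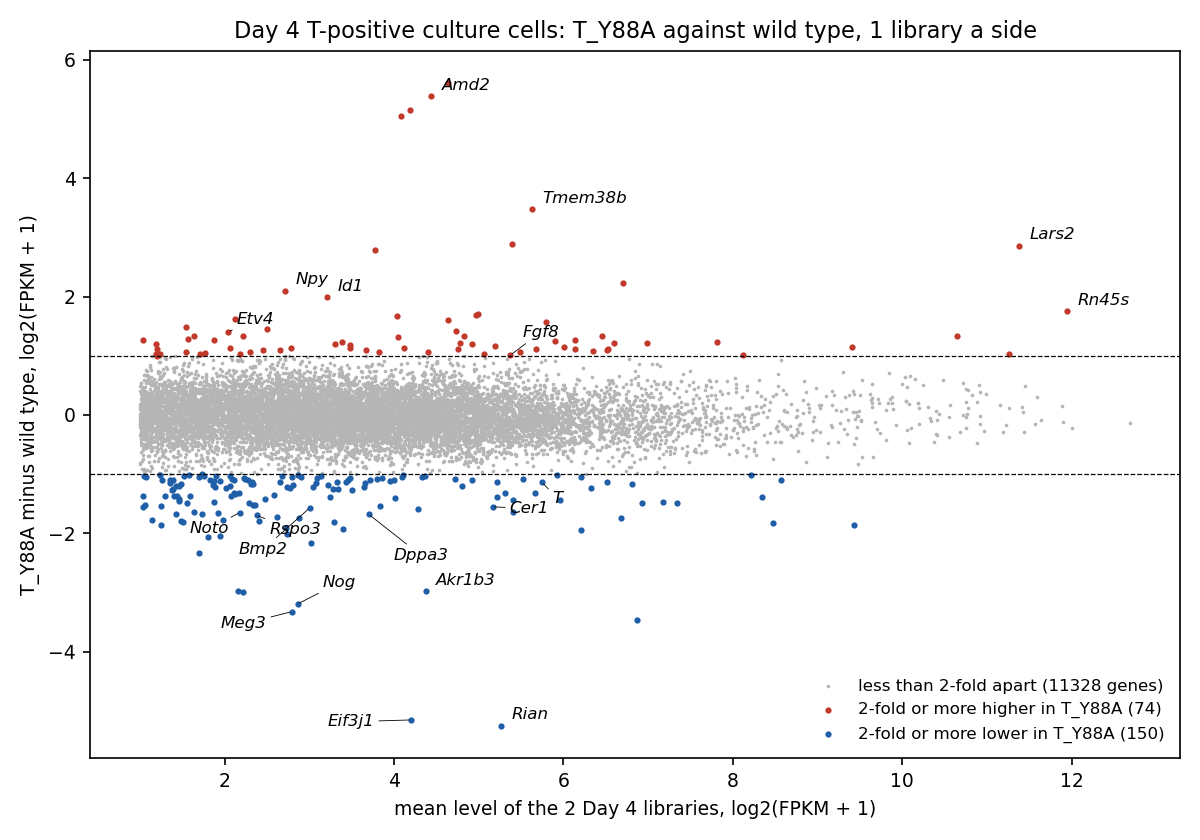
Day 4 difference (T_Y88A minus wild type, log2(FPKM + 1), vertical axis) against the mean level of the 2 libraries (log2(FPKM + 1), horizontal axis), with 1 point a gene and dashed lines at a 2-fold difference. The 74 genes above the upper line and the 150 below the lower line are coloured, with *Rian* (−5.25), *Nog* (−3.20), *Id1* (2.00) and *Fgf8* (1.01) among those named.

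T itself (chromosome 17, 8434423 to 8442496, mm10) had 32.5 FPKM in T_Y88A cells, against 72.9 FPKM in wild-type cells, a difference of −1.14. In the embryos it had 69.8 FPKM in T_Y88A TS12, 26.99 FPKM in T_Y88A TS13 and 65.9 FPKM in the wild type. The T_Y88A library at Day 4 thus lay between the T_Y88A embryo libraries, and the wild-type library above all 4 others. T RNA was present in both Day 4 libraries, as the sort for T requires, and an amino acid substitution is not visible in an RNA level, so nothing here checks the genotype. Of the 17 T-box genes listed, 4 were measured at Day 4. *Eomes*, which acts beside T in the early streak, had 9.43 FPKM in T_Y88A cells and 4.27 FPKM in wild-type cells (difference 0.98). *Tbx6*, needed for presomitic mesoderm, had 1.39 and 0.879 FPKM in T_Y88A and wild-type cells, and *Mga* had 28.7 and 31.1 FPKM.

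Several genes of the epiblast and of epithelia were high in both libraries, and some genes of mesoderm that has left the streak lay below the filter. The epithelial adhesion gene *Epcam* had 268 FPKM in T_Y88A cells and 290 FPKM in wild-type cells, and the pluripotency factor gene *Pou5f1* had 303 and 246 FPKM. None of the 22 pluripotency and epiblast genes measured was 2-fold apart. The range of these genes ran up to *Tdgf1*, the NODAL co-receptor also called Cripto, with 498 FPKM in T_Y88A cells and 261 FPKM in wild-type cells (difference 0.93). None of the 18 epithelial genes, 14 mesenchyme genes and 8 neural genes measured was 2-fold apart. Over all genes 1.94% were 2-fold apart, a share at which lists of this size may hold none. Of the mesoderm lists, 9 of 20 presomitic, 4 of 18 somite and 9 of 28 lateral plate and cardiac genes were measured. The FPKM of the presomitic list summed to 51.3 in T_Y88A cells and 55.3 in wild-type cells. *Msgn1*, *Mesp1* and *Mixl1*, genes of nascent and presomitic mesoderm, were below the filter. *Msgn1* was listed at 0 in T_Y88A cells and had 0.409 FPKM in wild-type cells, *Mesp1* had 0.725 and 0.237 FPKM, and *Mixl1* had 0.788 and 0.588 FPKM. None of 39 Hox genes was measured, with a highest value of 1.22 FPKM. Red cell globin genes *Hba-x*, *Hbb-bh1* and *Hbb-y* were listed at 0 in both libraries. Of 20 feeder and fibroblast genes, 8 were measured and 0 were 2-fold apart. The FPKM of the 20 summed to 433 in T_Y88A cells and 541 in wild-type cells, and *Col1a1* had 0.104 and 0.163 FPKM. In such sorted pools, fewer cells of a type and less RNA per cell cannot be told apart.

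Of 20 genes of the streak and nascent mesoderm, 15 were measured. Of these, 1 was 2-fold higher in T_Y88A cells and 1 was 2-fold lower (6.67% each, beside 0.641% and 1.3% of all genes). Differences above 0 were found for 11 of the 15, beside 46.7% of all genes, and the list median was 0.57 against −0.03 over all genes. *Fgf8*, the FGF ligand of the streak, was 2-fold higher, T was the gene 2-fold lower, and the other 13 were less than 2-fold apart. *Fgf8* (chromosome 19, 45736491 to 45742941, mm10) had 54.3 FPKM in T_Y88A cells, against 26.5 FPKM in wild-type cells. Its close relative *Fgf17* had 8.04 FPKM in T_Y88A cells and 3.52 FPKM in wild-type cells, a difference of 0.9991 that falls just short of 2-fold. The streak inducer *Wnt3* had 5.03 FPKM in T_Y88A cells and 2.21 FPKM in wild-type cells (difference 0.91), and the organizer gene *Gsc* had 5.94 and 2.63 FPKM (0.94). *Evx1*, a homeobox gene of the posterior streak, had 1.31 FPKM in T_Y88A cells and 0.145 FPKM in wild-type cells and lay below the filter.

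Among the FGF genes 1 ligand and 1 transcription factor gene were 2-fold higher in T_Y88A cells. Of 18 measured FGF ligand, receptor and feedback genes, 2 were 2-fold higher (11.1%, beside 0.641% of all genes) and 0 were lower, with a median of 0.07. Besides *Fgf8* this was *Etv4*, an ETS factor gene induced by FGF signalling, with 4.97 FPKM in T_Y88A cells and 1.26 FPKM in wild-type cells (difference 1.40). Its relative *Etv5* had 43.7 and 26.4 FPKM (0.71). Other feedback genes were closer to equal. *Dusp6*, a phosphatase of the ERK kinases, had 76.0 FPKM in T_Y88A cells and 72.4 FPKM in wild-type cells, and *Spry2*, an inhibitor of the receptor pathway, had 6.68 and 9.02 FPKM. Of the other ligands measured in the list, *Fgf17* had a difference of 0.9991. *Fgf4* had 3.14 and 3.84 FPKM and *Fgf5* a difference of −0.04, so the higher values did not extend to all FGF ligands.

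**Figure D2:**
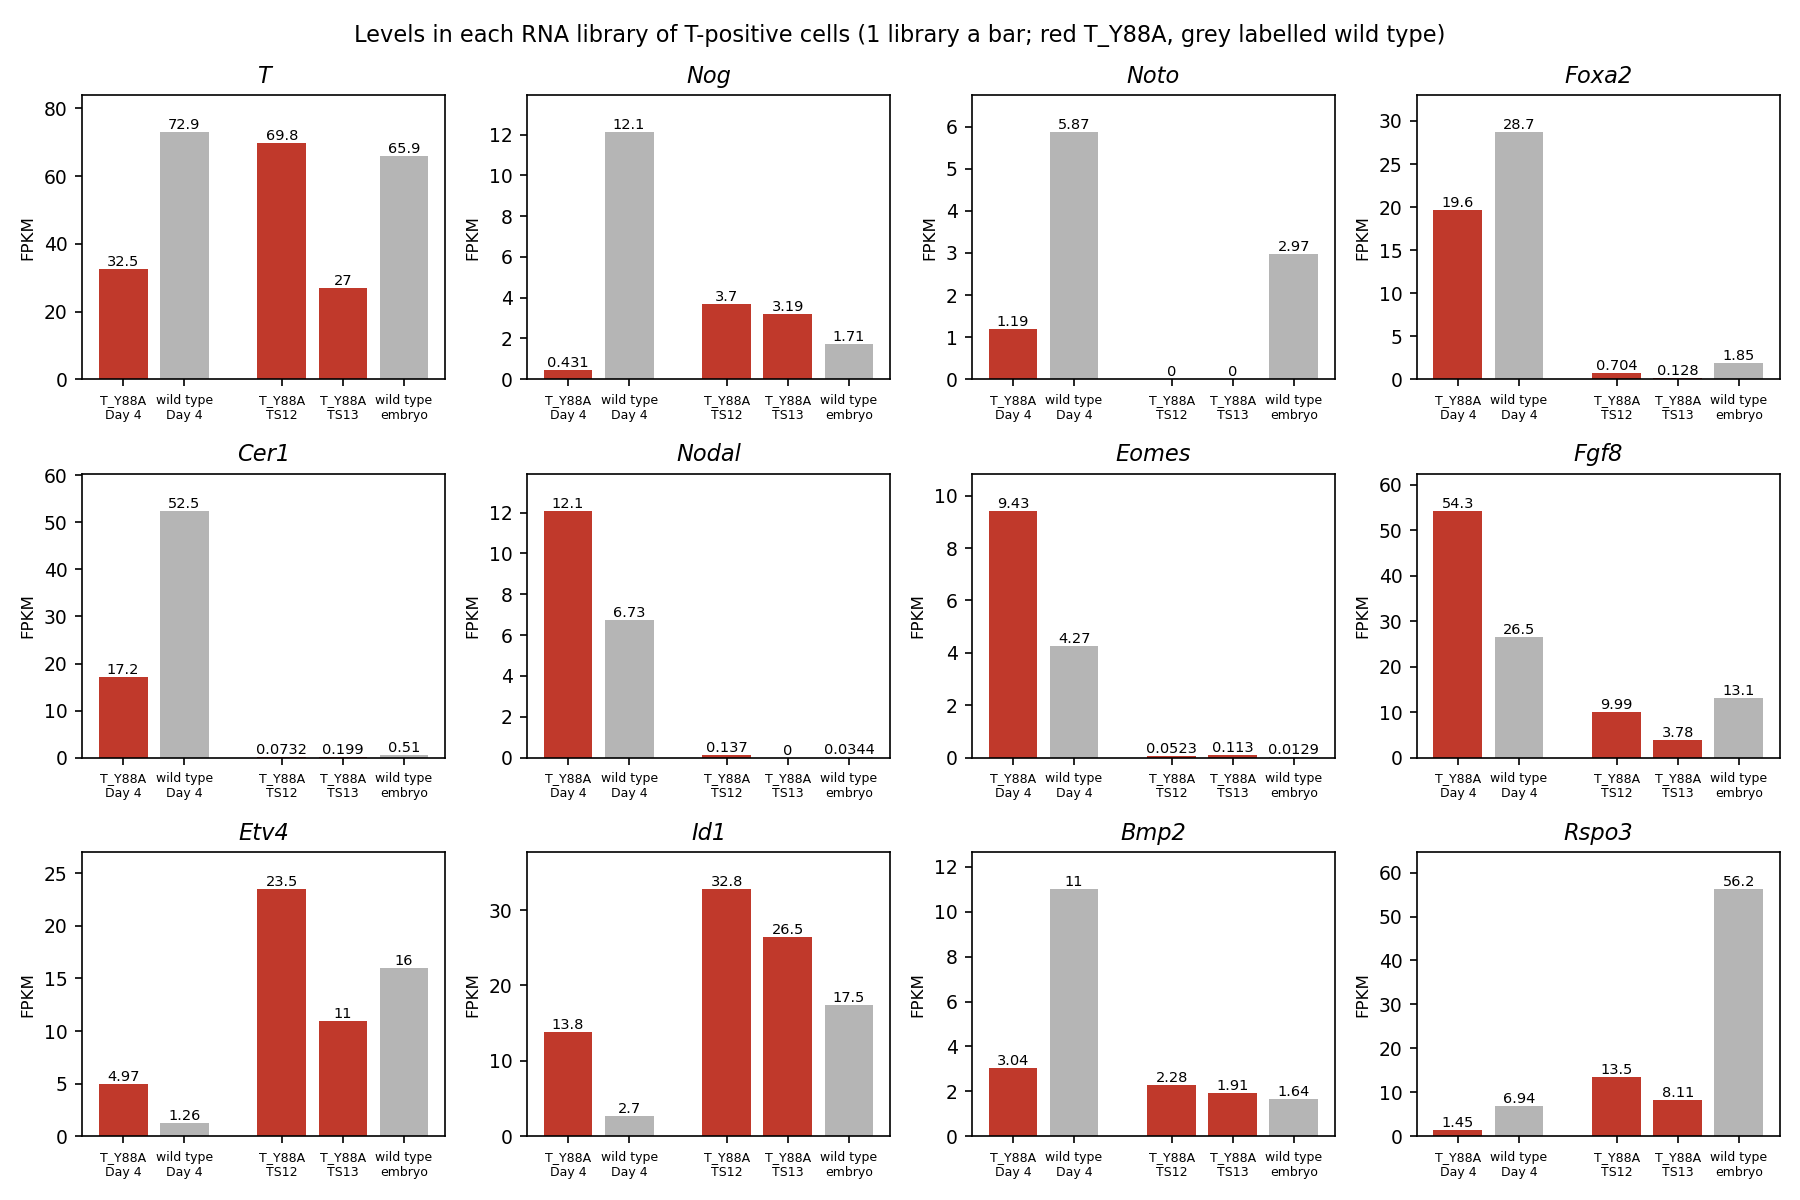
FPKM (vertical axes, each from 0) of 12 genes in the 5 RNA libraries, with 1 bar a library, red for T_Y88A and grey for the library labelled wild type. *Nog*, *Noto*, *Cer1*, *Bmp2* and *Rspo3* were lower in T_Y88A than in wild type at Day 4, while *Nodal*, *Eomes*, *Fgf8*, *Etv4* and *Id1* were higher.

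Of the NODAL pathway genes, the inhibitor gene *Cer1* was 2-fold lower in T_Y88A cells. Of 15 measured genes, 0 were 2-fold higher and 1 was 2-fold lower (6.67%), beside 0.641% and 1.3% of all genes. Differences above 0 were found for 10 of the 15, beside 46.7% of all genes, and the median was 0.42. *Nodal*, the TGF-beta family ligand that patterns the streak, had 12.1 FPKM in T_Y88A cells and 6.73 FPKM in wild-type cells (difference 0.76). Its targets and antagonists *Lefty1* and *Lefty2* had 10.004 and 24.4 FPKM in T_Y88A cells, against 5.90 and 14.3 FPKM in wild-type cells. *Foxh1*, whose product carries the NODAL signal to DNA with SMAD proteins, had 46.3 and 27.7 FPKM in T_Y88A and wild-type cells (0.72). The receptor genes *Acvr1b* and *Acvr2a* had differences of 0.00 and −0.20, and those of *Smad2* and *Smad3* were 0.02 and −0.17. *Cer1*, whose secreted product Cerberus binds NODAL and BMP, had 17.2 FPKM in T_Y88A cells, against 52.5 FPKM in wild-type cells (difference −1.55). *Cer1* is also in the definitive endoderm list, which held 10 measured genes with 1 higher (10%), 1 lower (10%) and a median of 0.56. The gene counted higher there was *Spink3*, a secreted protease inhibitor gene, with 6.47 and 2.47 FPKM. The endoderm factor gene *Sox17* had 1.995 FPKM in T_Y88A cells and 1.37 FPKM in wild-type cells.

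The node and notochord genes were the lineage list with the most genes 2-fold lower, and none was 2-fold higher. Of 15 listed genes, 10 were measured, 3 were 2-fold lower (30%, beside 1.3% of all genes) and 7 were below 0, with a median of −0.25 against −0.03 over all genes. *Nog*, the gene of the BMP antagonist Noggin (chromosome 11, 89300638 to 89302559, mm10), had 0.431 FPKM in T_Y88A cells, against 12.1 FPKM in wild-type cells, a difference of −3.20. *Noto*, the notochord homeobox gene, had 1.19 FPKM in T_Y88A cells and 5.87 FPKM in wild-type cells (−1.65). *Bicc1*, an RNA-binding protein gene of the node, had 0.519 and 2.92 FPKM (−1.37). *Foxa2*, shared by node, notochord and endoderm, had 19.6 FPKM in T_Y88A cells and 28.7 FPKM in wild-type cells (−0.53). *Foxj1*, the regulator of motile cilia, had 21.4 and 27.4 FPKM (−0.34), and *Chrd*, the gene of the BMP antagonist Chordin, had 4.87 and 5.52 FPKM (−0.15). The 3 measured genes above 0 were *Nodal* (0.76), *Dand5* (0.47) and *Krt18* (0.08), and *Krt8* was at −0.01, so the lower values did not extend to the whole list.

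*Shh*, the signal of the notochord, had 0.146 FPKM in T_Y88A cells and 1.77 FPKM in wild-type cells, which places it below the filter. Of its response genes, *Ptch1*, the receptor that the pathway induces, had 5.01 FPKM in T_Y88A cells, against 13.3 FPKM in wild-type cells (difference −1.25). *Gli1*, the other standard response gene, had 0.240 and 0.659 FPKM, below the filter in both cases. *Ptch1* and *Gli1* were chosen after their values were seen.

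The BMP list held 2-fold differences in both directions. Of 17 measured genes, 1 was 2-fold higher in T_Y88A cells (5.88%, beside 0.641% of all genes) and 3 were 2-fold lower (17.6%, beside 1.3%), with a median of 0.09. Besides *Nog*, the lower genes were the ligand genes *Bmp2*, with 3.04 FPKM in T_Y88A cells and 11.01 FPKM in wild-type cells (−1.57), and *Bmp5*, with 0.482 and 2.82 FPKM (−1.36). *Bmp4* had 1.32 and 3.002 FPKM (−0.79). The gene counted higher was *Id1*, a direct target of BMP signalling that inhibits helix-loop-helix factors (chromosome 2, 152736251 to 152737410, mm10), with 13.8 FPKM in T_Y88A cells and 2.70 FPKM in wild-type cells (difference 2.00). *Id3* had 20.2 FPKM in T_Y88A cells and 11.6 FPKM in wild-type cells (0.75). The inhibitory SMAD genes *Smad6* and *Smad7*, which the pathway also induces, had differences of 0.94 and 0.79. *Id2* (0.24) and the BMP receptor gene *Bmpr1a* (−0.23) were closer to equal.

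Of the genes further along the paraxial mesoderm path, 1 was 2-fold apart. *Rspo3*, a secreted enhancer of WNT signalling found in the streak and presomitic mesoderm, had 1.45 FPKM in T_Y88A cells, against 6.94 FPKM in wild-type cells (difference −1.70). It was the sole gene 2-fold apart among the 9 measured of 20 presomitic genes (11.1%). The same held for the 20 measured of 28 WNT target and feedback genes (5%), beside 1.3% of all genes 2-fold lower. The WNT feedback genes *Axin2* (5.74 FPKM in T_Y88A cells and 4.07 FPKM in wild-type cells) and *Sp5* (2.35 and 1.64 FPKM) were on the higher side. The NOTCH ligand gene *Dll1* had 0.498 and 1.12 FPKM in T_Y88A and wild-type cells and lay below the filter. The NOTCH target *Hey1* had 1.31 FPKM in T_Y88A cells and 4.03 FPKM in wild-type cells (−1.13), the sole gene 2-fold apart of 14 measured NOTCH genes. *Hes1*, another NOTCH target, had 51.7 and 43.4 FPKM. None of the 4 measured of 18 somite genes was 2-fold apart.

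The caudal epiblast list held 9 measured genes, of which *Fgf8* was higher and T was lower. Over all genes, 0.641% were 2-fold higher and 1.3% were 2-fold lower. *Cyp26a1*, the enzyme gene that clears retinoic acid from the streak, had 20.3 FPKM in T_Y88A cells and 16.5 FPKM in wild-type cells. *Sox2* had 34.1 and 43.8 FPKM, *Nkx1-2* had 0.846 and 1.40 FPKM, and *Wnt3a* was listed at 0 in T_Y88A cells and at 0.00844 FPKM in wild-type cells. In the retinoic acid list of 11 measured genes, *Dhrs3*, which turns retinal back into retinol, was higher with 18.1 FPKM in T_Y88A cells and 8.16 FPKM in wild-type cells (1.06). *Rdh10*, which makes retinal, had 5.61 and 11.95 FPKM (−0.97), and *Aldh1a2*, the retinoic acid synthase gene, had 0.0862 and 1.51 FPKM below the filter. In the lateral plate and cardiac list, *Bmp2* was the sole gene 2-fold apart of 9 measured. In the blood and endothelium list it was *Gata1*, the erythroid factor gene, of 5 measured, with 2.08 and 0.537 FPKM in T_Y88A and wild-type cells (1.00), beside a sum over the 34 listed genes of 48.0 FPKM in T_Y88A cells and 31.9 FPKM in wild-type cells. *Arg1* had 0.198 FPKM in T_Y88A cells and 1.30 FPKM in wild-type cells and lay below the filter.

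Imprinted genes, of which a single parental copy is active, held the gene with the most negative difference of the comparison. Of 27 measured, 0 were 2-fold higher and 5 were 2-fold lower (18.5%, beside 1.3% of all genes), with a median of −0.27. Of these 5, 4 lie in the imprinted *Dlk1*-*Meg3* domain of chromosome 12. *Rian*, a maternally expressed long noncoding RNA that hosts small nucleolar RNAs (chromosome 12, 109603945 to 109661716, mm10), had 0.968 FPKM in T_Y88A cells, against 74.0 FPKM in wild-type cells (−5.25). *Meg3* (109540996 to 109571729) had 0.257 FPKM in T_Y88A cells and 11.6 FPKM in wild-type cells (−3.33). *Mirg* (109734981 to 109749458) was listed at 0 in T_Y88A cells and had 6.91 FPKM in wild-type cells. *Rtl1* (109564900 to 109604418), which maternal antisense transcripts overlap, had 0.0280 FPKM in T_Y88A cells and 2.73 FPKM in wild-type cells (−1.86). The labels and notes do not say whether counting used strand, so *Rtl1* and its antisense RNA cannot be separated. The paternally expressed *Dlk1* of the same domain was near 0 in both libraries, with 0.180 and 0.0973 FPKM.

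The other imprinted gene 2-fold lower was *Snurf*, with 28.5 FPKM in T_Y88A cells and 61.3 FPKM in wild-type cells (−1.08). It shares its transcript with *Snrpn*, which had 68.6 and 62.2 FPKM, so the split of fragments between these names is uncertain. *H19*, a maternally expressed noncoding RNA of chromosome 7, had 234 FPKM in T_Y88A cells and 346 FPKM in wild-type cells (−0.56). The imprinted *Igf2* beside it had 16.2 and 21.96 FPKM, and *Peg3* had 194 and 179 FPKM, so the wide differences did not extend to these genes. The germ cell and oocyte gene *Dppa3* had 5.19 FPKM in T_Y88A cells, against 18.8 FPKM in wild-type cells (−1.68), while the other 7 germ cell genes measured were less than 2-fold apart. All 3 Y-linked genes measured were on the lower side in T_Y88A cells. *Eif2s3y* had 32.5 FPKM in T_Y88A cells and 89.9 FPKM in wild-type cells (−1.44), *Uty* had 4.48 and 10.5 FPKM (−1.07), and *Ddx3y* had 8.37 and 11.8 FPKM (−0.45), so both cultures carried Y-linked RNA. The part that imprinting state, stem cell line or Y-linked dosage has in the other differences was not tested.

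The core motif of T-box factors, AGGTGTGA or its reverse complement TCACACCT, was searched for on both strands of RefSeq promoters of GRCm38.p6, from 250 bases before to 50 bases after each start. Promoters were found for 9247 of the 11552 genes. The letters were in 95 of 11774 promoters of all genes measured (0.807%), in 1 of 55 promoters of genes 2-fold higher (1.82%) and in 2 of 125 promoters of genes 2-fold lower (1.6%). A match describes the sequence and is no evidence of a bound site.

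**Figure D3:**
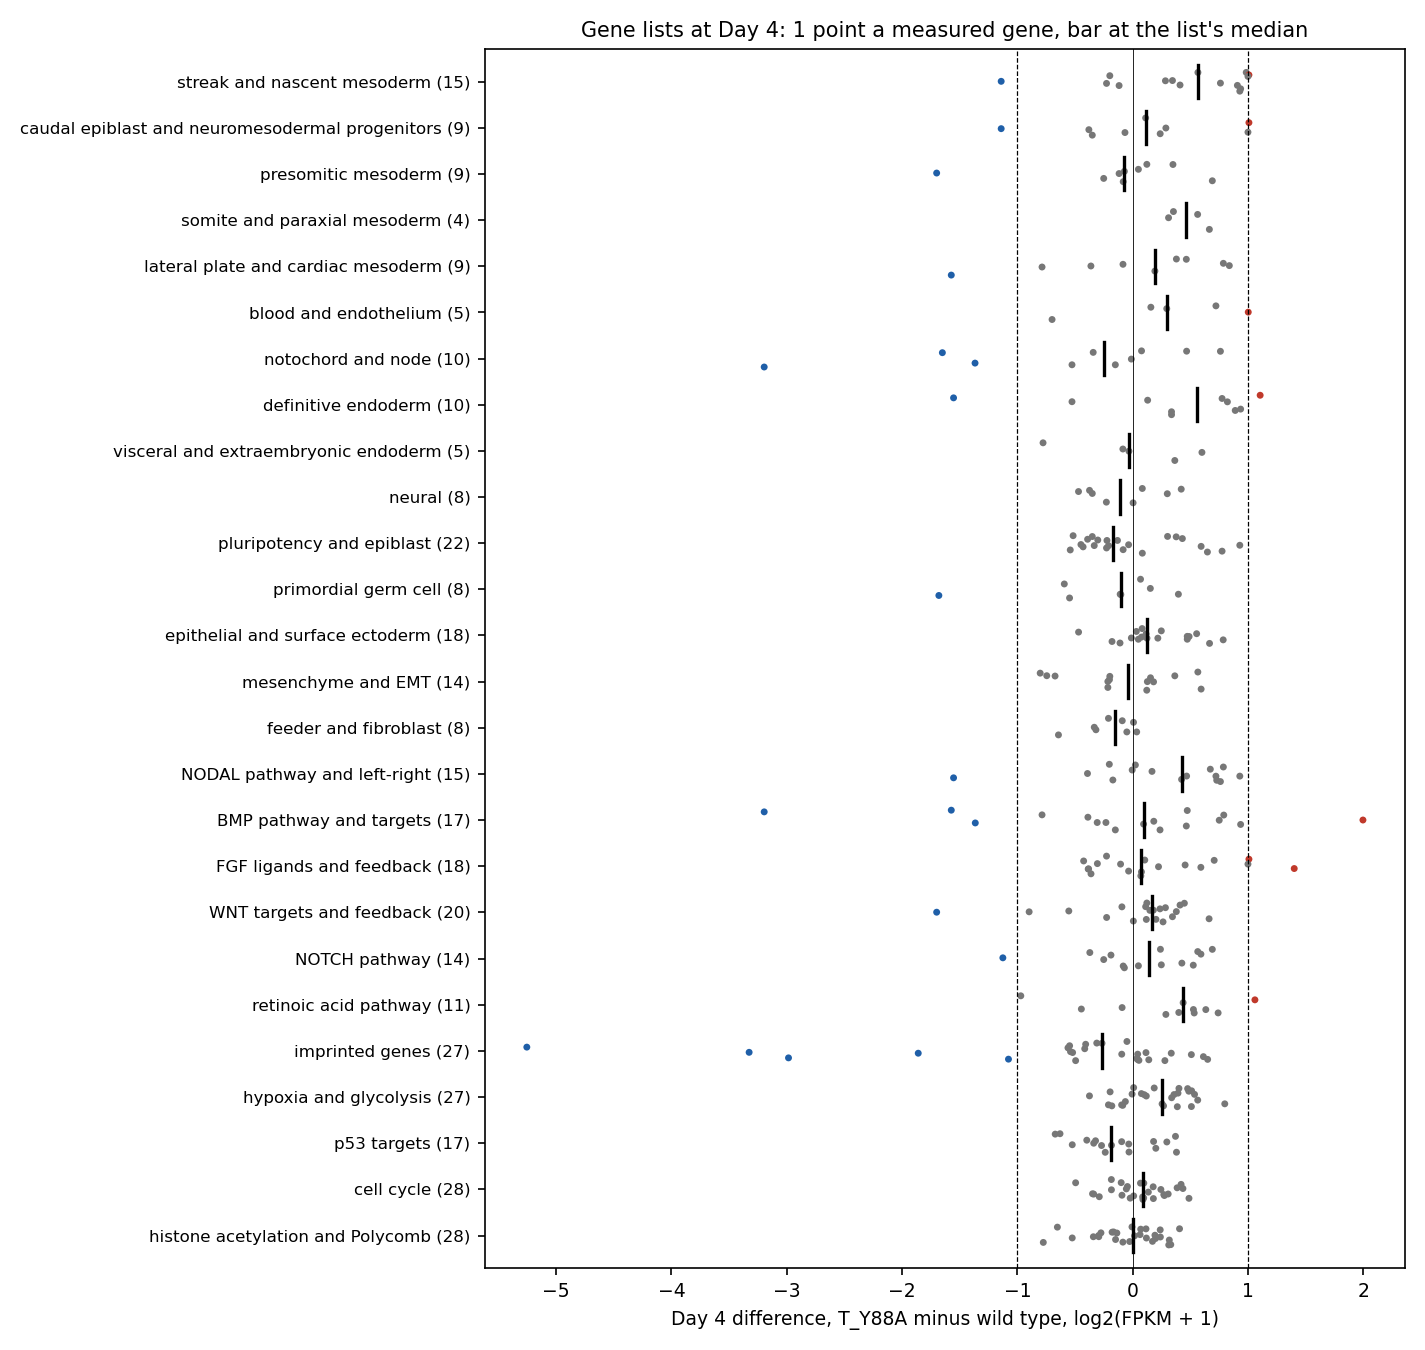
Day 4 difference (T_Y88A minus wild type, log2(FPKM + 1), horizontal axis) of the measured genes of 26 lists, with 1 point a gene, a black bar at each median and the number of genes in brackets. Most points lie between the dashed 2-fold lines, with medians from −0.27 for imprinted genes to 0.57 for streak and nascent mesoderm, and the imprinted, node and BMP lists hold the points farthest to the left.

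Several cell functions showed no gene 2-fold apart. These were the 28 cell cycle genes, 28 histone acetylation and Polycomb genes, 27 hypoxia and glycolysis genes, 17 p53 targets, 15 collagen, laminin and basement membrane genes, 13 immediate early genes, 11 heat shock genes and 5 visceral endoderm genes measured. Their medians lay between −0.18 for p53 targets and 0.25 for hypoxia and glycolysis. Of 81 ribosomal protein genes, 2 were higher (2.47%) and 3 lower (3.7%). Of 77 histone genes, 3 were higher (3.9%) and 7 lower (9.09%), and of 80 oxidative phosphorylation genes 1 was higher (1.25%) and 1 lower (1.25%), beside 0.641% of all genes higher and 1.3% lower. Single members of the ribosomal and histone families share sequence with near-identical copies, so their values are uncertain.

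The widest differences at a mean of 5 FPKM or more held several such cases. *Amd2* had 41.3 FPKM in T_Y88A cells and 0.00899 FPKM in wild-type cells, while its near-identical copy *Amd1* had 21.9 and 61.1 FPKM. In the same way *Eif3j2* had 24.0 FPKM in T_Y88A cells and 6.84 FPKM in wild-type cells, against 0.00487 and 34.8 FPKM for *Eif3j1*. How fragments were divided within these pairs is uncertain. The 45S ribosomal RNA precursor *Rn45s* had 6061 FPKM in T_Y88A cells and 1801 FPKM in wild-type cells (1.75), and was chosen after its values were seen. *Lars2*, a mitochondrial leucyl-tRNA synthetase gene whose transcript carries a stretch like ribosomal RNA, had 4686 FPKM in T_Y88A cells and 644 FPKM in wild-type cells (2.86). Of the 84 small RNA genes, 46 were 2-fold higher in T_Y88A cells (54.8%) and 9 lower (10.7%), with a median of 1.19. The part of ribosomal and short RNA in the other differences was not tested.

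Among the remaining genes of this group, *Tmem38b*, an ion channel gene of the endoplasmic reticulum, had 89.7 FPKM in T_Y88A cells and 7.16 FPKM in wild-type cells (3.47). *Npy*, the gene of neuropeptide Y, had 9.67 and 1.49 FPKM (2.099). *Fmr1nb* had 37.5 and 13.4 FPKM (1.41), *BC018473* had 22.96 and 2.47 FPKM (2.79), and *2310014L17Rik* had 72.8 and 8.98 FPKM (2.89). On the lower side, *Akr1b3*, the aldose reductase gene, had 3.65 FPKM in T_Y88A cells, against 35.8 FPKM in wild-type cells (−2.98). *Alox15*, a lipoxygenase gene, had 1.96 and 12.2 FPKM (−2.16), and *Tmod2*, a cap of actin filaments, had 1.66 and 9.70 FPKM (−2.01). *Drc1*, a part of the motile cilium, had 3.40 FPKM in T_Y88A cells and 15.8 FPKM in wild-type cells (−1.93), and the prohormone convertase gene *Pcsk1* had 1.76 and 9.41 FPKM (−1.91). The rest of the 24 genes were *2900060B14Rik*, *Gm20594* and *Hist1h4j* on the higher side, with differences from 1.34 to 1.71, and *Hist2h2aa2*, *Hist1h2ag* and *Rps21* on the lower side, from −3.47 to −1.87.

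The Day 4 differences were set beside those of the sorted embryo cells, which share no library with them. The column of the embryo wild type was matched by its stages and is named like the T_Y88A columns, so the embryo directions depend on the sample's label. In the embryos, where 11146 genes were measured, 39 genes were 2-fold higher in both T_Y88A libraries than in the wild type (0.35%) and 159 were lower in both (1.43%). Over the 10414 genes measured in both systems, the Day 4 difference and the mean embryo difference had r = 0.07 across genes, a description in which all genes share the same libraries. Of these genes 89 were lower at Day 4 (0.855%) and 76 were lower in the embryos (0.73%). 8 were lower in both, which is 8.99% of the Day 4 genes and 10.5% of the embryo genes. 1 gene was higher in both, *Gm20594*, with 2294 FPKM in T_Y88A cells and 909 FPKM in wild-type cells at Day 4, which is 1.75% of the 57 genes higher at Day 4 (0.547% of those measured in both) and 3.03% of the 33 higher in the embryos (0.317%). In opposite directions, *Gata1* and *Lars2* were 2-fold higher at Day 4 and 2-fold lower in the embryos, and *Amd1* and *Rps27* the reverse.

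Of the 8 genes lower in both systems, 5 lie in the *Dlk1*-*Meg3* domain of chromosome 12. They are *Rian*, *Meg3*, *Mirg*, *Rtl1* and *6430411K18Rik*. *6430411K18Rik*, a noncoding RNA between *Meg3* and *Rian*, had 0.0742 FPKM in T_Y88A cells and 4.39 FPKM in wild-type cells at Day 4. In the embryos *Rian* had 0.953 FPKM in T_Y88A TS12, 0.602 FPKM in T_Y88A TS13 and 55.0 FPKM in the wild type, and *Meg3* had 0.0642, 0.0503 and 7.58 FPKM in the same order. All 3 T_Y88A libraries of the series were thus near 0 for both genes, and both wild-type libraries were well above. The other 3 genes were *Rspo3*, *Dppa3* and *Limch1*. *Rspo3* had 13.5 FPKM in T_Y88A TS12, 8.11 FPKM in T_Y88A TS13 and 56.2 FPKM in the wild type. *Dppa3* had 4.01 FPKM in T_Y88A TS12, 2.30 FPKM in T_Y88A TS13 and 9.84 FPKM in the wild type. *Limch1*, an actin-associated protein gene, had 0.661 FPKM in T_Y88A cells at Day 4 and 2.57 FPKM in wild-type cells, with embryo differences of −1.50 and −1.58 for TS12 and TS13.

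**Figure D4:**
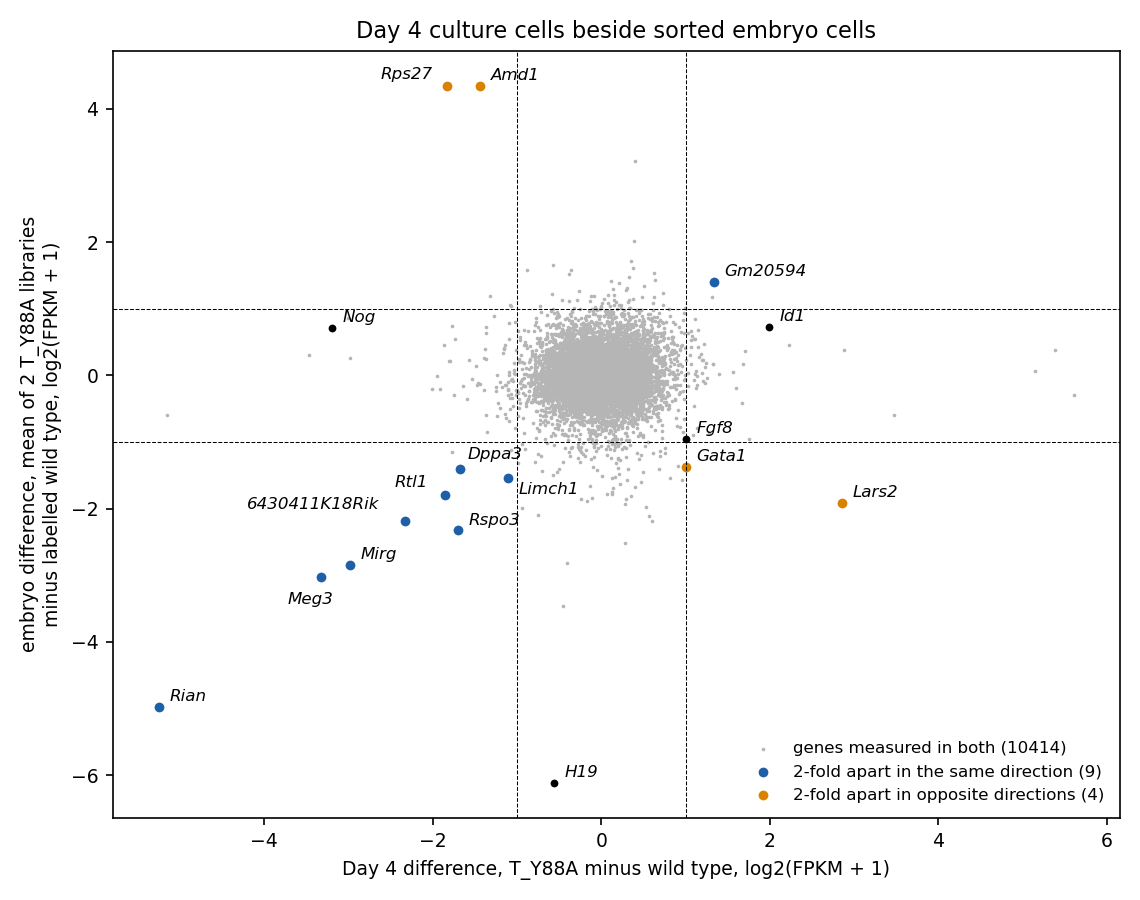
Day 4 difference (horizontal axis) against the mean embryo difference of 2 T_Y88A libraries (vertical axis), both T_Y88A minus wild type in log2(FPKM + 1), with 1 point for each of 10414 genes and dashed lines at 2-fold. In both systems 9 genes (blue) were 2-fold apart the same way and 4 genes (orange) opposite ways, and *H19* was far lower in the embryos with a Day 4 difference of −0.56.

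Other genes with low values in T_Y88A embryos were not far apart at Day 4. *H19* had 16.3 FPKM in T_Y88A TS12, 14.9 FPKM in T_Y88A TS13 and 1154 FPKM in the wild-type embryo library, beside 234 and 346 FPKM in T_Y88A and wild-type cells at Day 4. *Cyp26a1* had 4.08, 4.38 and 28.8 FPKM in T_Y88A TS12, T_Y88A TS13 and wild-type embryo cells, but was slightly on the higher side at Day 4 (0.29). *Msgn1* and *Dll1*, with 41.1 and 44.3 FPKM in the wild-type embryo library, were below the filter at Day 4, so the 2 systems cannot be compared for them. *Noto* was listed at 0 in both T_Y88A embryo libraries and had 2.97 FPKM in the wild type, on the same side as at Day 4, though too low to be counted there. *Nog* was on the other side, with 3.70 FPKM in T_Y88A TS12, 3.19 FPKM in T_Y88A TS13 and 1.71 FPKM in the wild type. *Nodal*, *Eomes*, *Cer1* and *Tdgf1* were at or near 0 in all 3 embryo libraries, so their Day 4 differences have no counterpart there.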

How the data were processed

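Sorted T-positive cells went into lysis buffer, and a ScriptSeq v2 low-input kit was used for the libraries, per the labels' protocols. The authors deposited a table of FPKM, 1 column for each of 5 RNA libraries, and these values were used as deposited. The submitters' processing notes name TopHat2 2.0.8, Cufflinks 2.1.1, bedtools 2.23.0 and the build mm10, without roles or order. Each of the 5 columns was matched to 1 sample by its label and 0 were left unused. The 7 chromatin samples were not analysed here.

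Differences were taken as log2(FPKM + 1) with a minimum mean of 1 FPKM over the libraries compared and a size of 2-fold (Python 3.11.15, pandas and numpy; the calculation was tested on simulated data with known differences). Of 23421 symbols, 21649 matched a current symbol of the RefSeq table of GRCm38.p6 (mm10), 23245 with unique synonyms, and 786 were small RNA genes, left out because short transcripts have unstable FPKM. Coordinates are those of that table, counted from 1. An exact 0 can be a failed estimate, so such genes (5 of those measured) are described as listed at 0. Relative depth is the commonest ratio between 2 libraries over genes below 0.06 FPKM, within 0.03 on the log2 scale. For the Day 4 T_Y88A library it rested on 533 genes, of which 19.9% had that ratio.

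The 37 gene lists, and the genes described, were chosen with earlier results of these data known. Named genes are T, every listed gene 2-fold apart outside the ribosomal protein, histone and oxidative phosphorylation lists, and some listed genes less far apart. Also named are the 12 widest differences each way at a mean of at least 5 FPKM (above 0 in both libraries, matched to the RefSeq table, no small RNA or pseudogene). The genes 2-fold apart in the same direction in embryos and 11 genes of the embryo comparison were added. From the 2 lists written after the values were seen, only some genes are named. Alternatives were other pseudocounts, filters, scalings and sizes.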

Additional observations from a re-analysis of the deposited data

Results flagged for a closer look

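Of the named genes that were 2-fold apart at Day 4 and had a mean of 1 FPKM or more in both systems, 14 had differences of the opposite sign in both T_Y88A embryo libraries. The share of opposite signs over all genes was not counted, so the 14 have no background to be set beside. Over the 10414 genes measured in both systems, the Day 4 and mean embryo differences had r = 0.07. Some of the embryo differences below are small. The difference between the systems was not tested, since Day 4 has 1 library a side. All values are T_Y88A minus wild type on the log2(FPKM + 1) scale.

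Signal genes were among them. *Nog* stood at −3.20 at Day 4, beside 0.79 in TS12 and 0.63 in TS13 embryos. *Bmp2* stood at −1.57 at Day 4, beside 0.31 in TS12 and 0.14 in TS13 embryos, and *Bmp5* at −1.36 at Day 4, beside 0.38 and 0.10. *Fgf8* had 1.01 at Day 4, with −0.36 in TS12 and −1.56 in TS13 embryos. *Gata1* had 1.00 at Day 4, with −1.56 in TS12 and −1.19 in TS13 embryos. Its embryo values come from libraries in which the blood and endothelium list summed to 1476 FPKM (T_Y88A TS12), 2915 FPKM (T_Y88A TS13) and 8583 FPKM (wild type).

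Of the other genes, *Akr1b3* was at −2.98 at Day 4 with 0.28 in TS12 and 0.22 in TS13 embryos, and *Nmi*, an interferon-induced gene, at −1.80 with 0.19 and 0.25. *Tmem38b* was at 3.47 at Day 4 with −0.20 in TS12 and −0.99 in TS13 embryos. The Y-linked *Uty* was at −1.07 at Day 4 with 0.99 in TS12 and 1.09 in TS13 embryos.

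Genes with near-identical copies or ribosomal RNA sequence made up the rest. *Lars2* was at 2.86 at Day 4 with −1.80 in TS12 and −2.03 in TS13 embryos. *Amd1* was at −1.44 at Day 4 with 3.21 in TS12 and 5.47 in TS13 embryos, and *Eif3j2* at 1.67 with −0.45 and −0.37. *Rps21* was at −1.87 at Day 4 with 0.45 in TS12 and 0.46 in TS13 embryos, and *Rps27* at −1.83 with 3.84 and 4.85.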

How the results depend on the processing

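No paired analysis was possible because each side at Day 4 is 1 library and the labels give no replicate numbers. The counts depend on the value added before the log: with 0.1 in place of 1, 177 genes were higher and 259 lower, and with 5 they were 38 and 40, beside 74 and 150. Rescaling each library to the same sum of FPKM gave 124 higher and 213 lower genes, and keeping small RNA genes gave 120 and 159. A minimum mean of 5 FPKM gave 53 higher and 79 lower genes. At 4-fold, 10 genes were higher and 13 lower, and at 1.5-fold, 524 and 686. Lower in both systems, 8 genes as reported, were 16 with 0.1 added, 3 with 5 added, 2 at a minimum mean of 5 FPKM, 4 at 4-fold and 35 at 1.5-fold. Higher in both, 1 gene as reported, were 5 with 0.1 added, 2 after rescaling to the same sum, 6 with small RNA genes kept, 0 at 4-fold and 27 at 1.5-fold. Of 89 named genes, lists of the closing section included, 51 were under 2-fold with 5 added, *Fgf8*, *Etv4*, *Noto*, *Bmp2*, *Bmp5*, *Rspo3* and *Hey1* among them, and 38 were still 2-fold apart. After quantile normalization or after rescaling to the same sum, all 89 were still 2-fold apart. The same held with 0.1 added, no filter or small RNA genes kept, but these settings could not bring a gene under 2-fold. A smaller added value widens each difference, and a filter leaves it as it was. A minimum mean of 5 FPKM thus set only which genes were measured (51, with 38 not measured), as did leaving out genes listed at 0 (88, with 1 not measured). Of those measured, 0 changed direction under these alternatives or the next, though the scalings alone could change a direction. Rescaling by the median ratio left 88, *Capsl* being the exception. The 3 measured Y-linked genes set the median of the sex-linked list at −1.07, and with no filter on low values it was −0.13. The lower depth of the T_Y88A library limits low genes most.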

Other observations

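Many interferon response genes were 2-fold lower in T_Y88A cells at Day 4. Because the list was written after these values were seen, its counts describe the 2 libraries and carry no test. Of 103 listed genes, 81 were measured, 26 were 2-fold lower (32.1%, beside 1.3% of all genes), 0 were 2-fold higher and 10 were above 0, with a median of −0.69. *Gbp2*, a guanylate-binding protein gene, had 63.5 FPKM in T_Y88A cells, against 179 FPKM in wild-type cells (difference −1.48). *Psme2* and *Psmb8*, genes of the immunoproteasome, had 75.5 and 21.8 FPKM in T_Y88A cells, against 211 and 55.8 FPKM in wild-type cells. The viral sensors *Ifih1* (1.47 and 5.22 FPKM in T_Y88A and wild-type cells) and *Ddx58* (7.88 and 17.9 FPKM) were lower as well. *Irf1* (71.6 and 78.8 FPKM), *B2m* (141 and 169 FPKM) and *Isg15* (2.06 and 2.95 FPKM) were less than 2-fold apart. In the embryos many of the listed genes were at or near 0, *Gbp2* being listed at 0 in all 3 libraries. Over the 40 genes measured in both systems, the median was −0.21 at Day 4, −0.15 in TS12 and −0.13 in TS13 embryos.

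The letters GAAANNGAAA or the reverse complement TTTCNNTTTC, the core of the interferon-stimulated response element, were searched for on both strands of the same RefSeq promoters. This motif was chosen after the values were seen. It was in 329 of 11774 promoters of all genes measured (2.79%). Of the genes 2-fold lower, 17 of 125 promoters held it (13.6%), and of the genes 2-fold higher, 5 of 55 (9.09%), so both groups lay above all genes. It was in 34 of 79 promoters of the measured interferon genes (43%) and in 13 of 21 of those 2-fold lower (61.9%). These 21 promoters are part of the 125 of all genes 2-fold lower, so 13 of the 17 matches there came from the interferon list. A match shows letters, not a bound factor. The windows of 5 lower genes are shown with the match in capitals, each read 5′ to 3′ along the gene's strand in GRCm38.p6. Each window ends before the start of a transcript of its gene. For *Gbp3* this is not the first start, since the gene starts at 142560016 and the end of its window lies inside it. *Gbp2*, *Gbp2b*, *Gbp7* and *Gbp3* lie together on chromosome 3 (plus strand), and *Trim30a* lies on chromosome 7 (minus strand).
Gbp2, chr3:142620579-142620638: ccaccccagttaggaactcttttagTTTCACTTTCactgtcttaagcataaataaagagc
Gbp2b, chr3:142594685-142594744: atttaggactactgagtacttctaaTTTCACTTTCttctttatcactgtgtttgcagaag
Gbp7, chr3:142530258-142530317: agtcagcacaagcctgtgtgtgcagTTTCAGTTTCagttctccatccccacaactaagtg
Gbp3, chr3:142559980-142560039: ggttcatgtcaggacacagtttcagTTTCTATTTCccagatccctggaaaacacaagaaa
Trim30a, chr7:104465195-104465254: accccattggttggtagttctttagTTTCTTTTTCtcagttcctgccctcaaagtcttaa
*Gbp2* and *Gbp2b* carry the same 10 letters. *Gbp2b* had 28.1 FPKM in T_Y88A cells and 71.4 FPKM in wild-type cells, *Gbp7* had 4.72 and 12.7 FPKM, *Gbp3* had 1.85 and 8.41 FPKM, and *Trim30a* had 1.64 and 6.62 FPKM. Members of the Gbp family share sequence, so the split of fragments among them is uncertain.

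Motile cilium genes were also counted, again from a list written after the values were seen and without a test. Of 82 listed, 52 were measured, 18 were 2-fold lower (34.6%, beside 1.3% of all genes), 0 were 2-fold higher and 5 were above 0, with a median of −0.65. Besides *Drc1*, *Enkur*, a ciliary protein gene, had 7.85 FPKM in T_Y88A cells, against 22.4 FPKM in wild-type cells (−1.40). *Pifo* had 3.97 and 10.6 FPKM, *Kif27* had 2.01 and 7.09 FPKM, and *Ccno*, a cyclin family gene of multiciliated cells, had 0.286 and 3.09 FPKM. The regulator genes *Foxj1* (−0.34) and *Rfx3* (−0.66) were less than 2-fold apart. *Noto*, which the node list also holds, is among the 18. Of the 5 genes above 0, *Enkd1* had the largest difference (0.77), followed by *Dnal4* (0.35). Over the 19 cilium genes measured in both systems, the median was −0.51 at Day 4, −0.01 in TS12 and −0.07 in TS13 embryos.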
